A study of Mus musculus and Rattus norvegicus with 6 samples.

Results

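The genes described here are 46 genes of the extracellular matrix and of hepatic stellate cells, named as a list by symbol: collagens, laminins and other basement membrane proteins, fibronectin and elastic fibre proteins, proteoglycans, matricellular proteins, matrix proteases with their inhibitors, crosslinking enzymes, Tgfb1 and a pair of contractile proteins. The rule names them by symbol and uses no signal, but the list was chosen with earlier results of these data known. Counts of its members set beside those of all genes are therefore descriptive. All probe sets annotated to these symbols alone were taken, which gave 103 probe sets for 44 of the 46 genes in mice, among 18193 genes in all, and 75 probe sets for 45 of them in rats, among 14217 genes in all. Fbn1 and Loxl2 had no such probe set in mice and Thbs1 had none in rats, so they are not analysed there.

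Liver RNA was measured on 6 short-oligonucleotide arrays, 3 of mice and 3 of rats, with 1 array in each group. The mouse groups were Lepob/Lepob given leptin, Lepob/Lepob given saline and wild-type (WT) littermates given saline, on a C57/BL6J background. The rat groups were Lepmkyo/Lepmkyo given leptin, Lepmkyo/Lepmkyo given saline and WT littermates given saline, on an F344/NSlc background. All animals were male and 20 weeks old, and the liver was taken 6 h after recombinant murine leptin or saline had been injected into the peritoneum. Lepob is a loss-of-function allele of the leptin gene, so both mutant groups of mice lacked their own leptin from birth, and no group combined WT with leptin. The rat labels conflict, since the titles and genotype tags read Lepmyo/Lepmkyo and the source field reads Lepob/Lepob, and the spelling Lepmkyo/Lepmkyo follows the sample descriptions and the design text. Nothing in the labels says how many animals contributed RNA to an array.

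The extracellular matrix of the liver is thin in health. It lines the portal tracts with fibrillar collagen and fills the space between hepatocytes and sinusoids with a loose basement membrane. Hepatic stellate cells sit in that space, store vitamin A and, when activated, secrete collagens and inhibitors of matrix breakdown and acquire contractile proteins. Leptin is secreted by fat tissue, and animals that lack it overeat and become obese with fatty livers.

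Values are MAS5 signals on a linear scale, and each comparison is the ratio of 2 arrays. The median of all deposited signals of a platform served as a floor, which came to 82.7 for mice and 97.0 for rats. The brightest probe set by mean signal stood for its gene, and a gene counted as measured in a comparison when either array of the pair reached that floor. Signals under the floor were raised to it, and such a fold is given as "at least". With 1 array in a group there was no replicate spread and no basis for a test or a p-value, and the number of arrays limits the precision. "Higher" and "lower" therefore describe 2 arrays. In mice 32 members reached the floor on all 3 arrays, 9 on some and 3 on none (Col15a1, Lamb2 and Vcan). In rats 28 members did so on all 3 arrays, 11 on some and 6 on none (Col6a2, Eln, Lama5, Vcan, Tgfb1 and Postn). Because a dim gene enters a comparison through its brighter array, counts over measured members leave out the members that were dim on both arrays. The leptin transcript itself had signals of 2.8 to 6.0 on all 6 arrays and gave no check of the genotype.

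Saline-treated mutants were set against saline-treated WT littermates to ask how liver without leptin differs from WT liver. More of the matrix genes were higher than lower in the mutant liver of both species. In mice 38 members were measured, and their median log2 ratio was 0.39, beside -0.03 over all 11956 genes. In rats 38 members were measured, and their median log2 ratio was 0.71, beside 0.04 over all 9817 genes. The members ranged from -0.74 to 2.39 in mice and from -0.82 to 2.54 in rats, and the 5th to 95th percentiles of all genes ran from -0.90 to 0.95 in mice and from -0.63 to 0.82 in rats.

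In the Lepob/Lepob liver 5 of the 38 measured members were at least 2-fold higher (Esm1, Postn, Col6a2, Nid1 and Timp3), where 4.46% of all genes measured were. None was at least 2-fold lower, where 3.71% of all genes were. At 1.5-fold, 14 members were higher, beside 12.3% of all genes, and 1 was lower, beside 12.6% of all genes. In the Lepmkyo/Lepmkyo liver 14 of the 38 measured members were at least 2-fold higher, where 2.99% of all genes were, and 0 were 2-fold lower, where 1.45% of all genes were. At 1.5-fold, 21 rat members were higher, beside 10.2% of all genes, and 1 was lower, beside 5.92% of all genes. In mice 26 measured members lay above a log2 ratio of 0 and 12 below it, beside 47.4% of all genes above it, and in rats 29 lay above and 9 below, beside 55.2% of all genes above. A gene with 1 array under the floor takes its direction from the array that reached it, so these counts rest partly on that filter. In mice Col1a1, Col6a2, Timp1 and Esm1 were higher in this way, and Nid2 lower. In rats Lama4, Lamb1, Timp1, Lox, Loxl1, Esm1 and Tagln were higher in this way, and Col15a1, Thbs2 and Acta2 lower.

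As a measure of technical spread, the log2 genotype ratios of different probe sets of the same gene had an SD of 0.45 in mice and 0.44 in rats, which holds nothing of the variation between animals. Centring each mouse array on its median moved the median of all genes to 0.22 and that of the members to 0.65, and the 2-fold split of all genes, 533 higher and 443 lower as deposited, became 962 higher and 235 lower. In whole liver RNA, more RNA per cell and more cells of a type cannot be told apart, nor can less RNA and fewer cells.

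**Figure D1:**
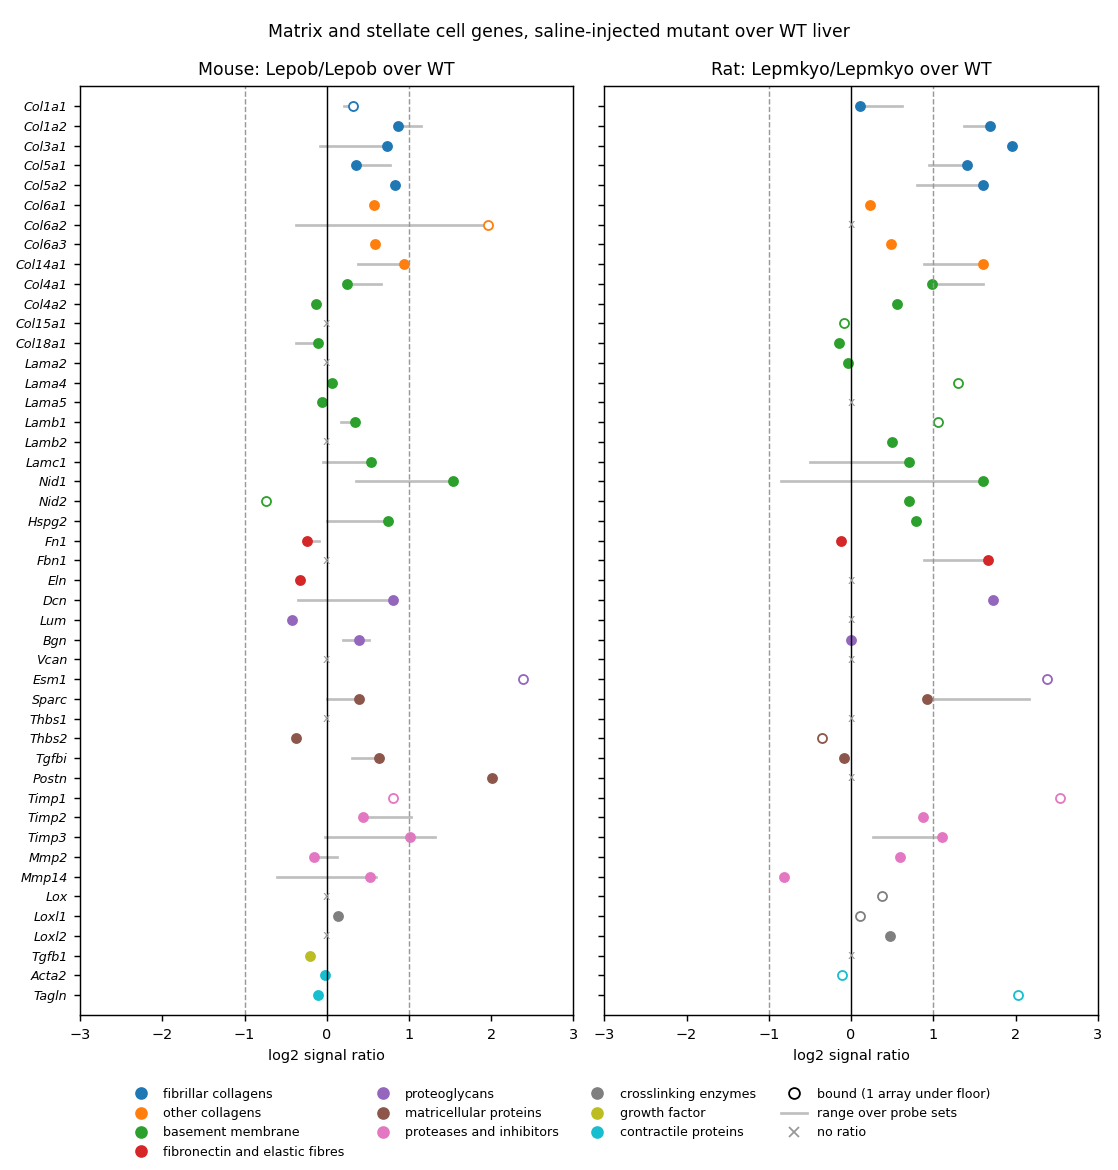
Log2 ratio of saline mutant over saline WT (horizontal axis, no unit) for each measured member, ordered by role, with mice and rats in separate panels. Each point is 1 gene from 1 pair of arrays, open points are bounds because an array lay under the floor, crosses are genes with no ratio, grey lines are the range over probe sets of a gene, and dashed lines mark 2-fold. More points lie right of 0 than left of it in both species, 26 against 12 in mice and 29 against 9 in rats, where 47.4% and 55.2% of all genes measured lay above 0.

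Of the 32 members measured in both species, 10 were at least 1.5-fold higher in the mutants of both: Col1a2, Col3a1, Col5a2, Col14a1, Nid1, Hspg2, Dcn, Timp1, Timp3 and Esm1. They were 10 of the 12 such mouse members that rats also measured (83.3%) and 10 of the 20 such rat members that mice also measured. Of the 8303 symbols measured in both species, 2.83% were at least 1.5-fold higher in both mutants. Nid1, Timp3 and Esm1 were at least 2-fold higher in both species by their brightest probe sets. By the median over its probe sets Nid1 was under 2-fold in both species, and Timp3 was under 2-fold in rats. Col6a3 and Tgfbi were 1.5-fold higher in mice and not in rats, beside 9.79% of the symbols. Another 10 members were 1.5-fold higher in rats and not in mice (Col4a1, Col5a1, Lama4, Lamb1, Lamc1, Nid2, Sparc, Timp2, Mmp2 and Tagln), beside 581 of the 8303 symbols. The sign of the ratio was the same in 25 of the 32 members (78.1%), beside 57.9% of the symbols, and Nid2 was the member that passed 1.5-fold in opposite directions. The sequences of the array probes differ between the species, so the folds are given side by side and their sizes were not compared by a test.

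**Figure D2:**
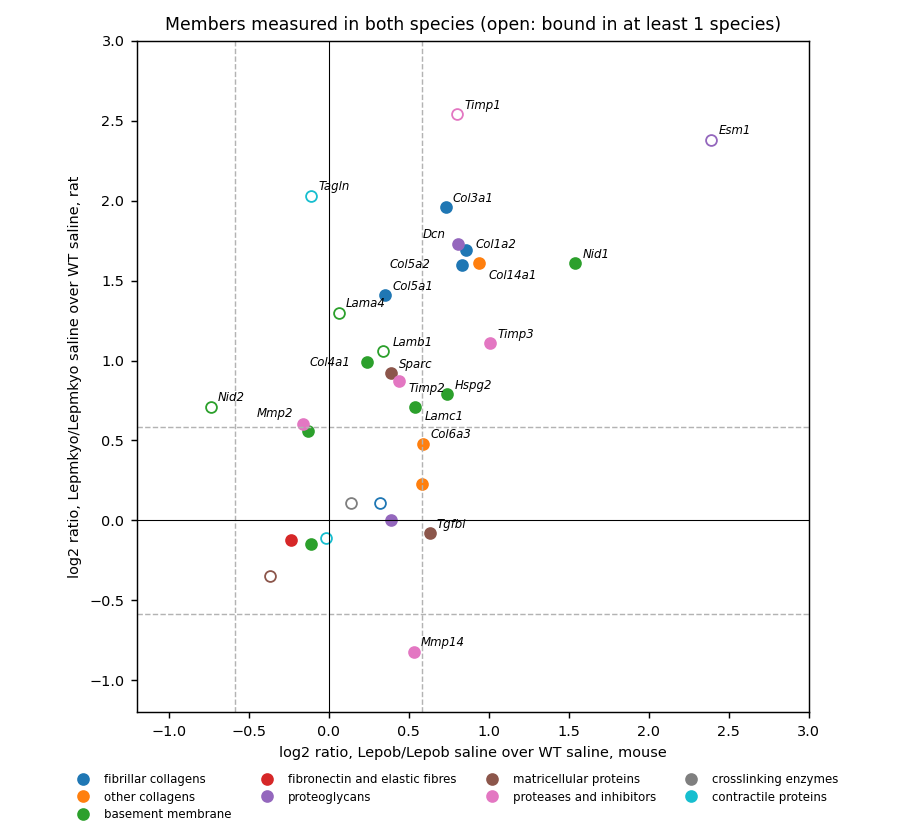
Log2 genotype ratio of each of the 32 members measured in both species, mouse on the horizontal and rat on the vertical axis (saline mutant over saline WT, no unit). Each point is 1 gene, open where a value is a bound, and dashed lines mark 1.5-fold. The upper right holds the 10 members at least 1.5-fold higher in both, with Esm1 at 2.39 and 2.38, and Nid2 lies at -0.74 in mice and 0.71 in rats.

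The mouse promoters of 4 of these shared members are shown to let their sequences be read side by side: the members with a single annotated start whose smaller ratio of the 2 species was largest. Each is the stretch of 250 bases before the start site in the RefSeq annotation of GRCm38.p6, plus strand, 5′ to 3′. Esm1 lies at chr13:113209409-113209658, Nid1 at chr13:13437352-13437601, Timp3 at chr10:86300162-86300411 and Col1a2 at chr6:4505368-4505617. Capitals mark matches to a CCAAT box (CCAAT) or a GC box (GGGCGG), read on both strands, so that ATTGG and CCGCCC are matches on the other strand.
Esm1: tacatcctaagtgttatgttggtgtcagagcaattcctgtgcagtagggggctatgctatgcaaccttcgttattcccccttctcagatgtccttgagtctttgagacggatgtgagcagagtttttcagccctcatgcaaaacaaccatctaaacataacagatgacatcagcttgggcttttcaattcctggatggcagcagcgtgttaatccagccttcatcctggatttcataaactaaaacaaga
Nid1: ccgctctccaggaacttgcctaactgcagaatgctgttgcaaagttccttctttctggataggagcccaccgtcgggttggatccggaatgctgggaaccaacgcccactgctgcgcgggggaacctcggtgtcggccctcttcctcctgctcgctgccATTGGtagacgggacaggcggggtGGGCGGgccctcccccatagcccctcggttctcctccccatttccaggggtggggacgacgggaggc
Timp3: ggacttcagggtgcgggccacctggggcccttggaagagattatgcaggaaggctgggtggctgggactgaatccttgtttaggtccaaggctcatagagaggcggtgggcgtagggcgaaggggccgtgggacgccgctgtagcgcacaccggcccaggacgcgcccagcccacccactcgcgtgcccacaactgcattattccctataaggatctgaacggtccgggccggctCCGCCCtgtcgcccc
Col1a2: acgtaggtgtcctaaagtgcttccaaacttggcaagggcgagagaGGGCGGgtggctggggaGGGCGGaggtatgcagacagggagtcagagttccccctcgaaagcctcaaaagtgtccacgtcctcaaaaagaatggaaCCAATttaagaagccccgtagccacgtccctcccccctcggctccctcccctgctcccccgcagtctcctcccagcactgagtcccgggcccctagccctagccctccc
The Esm1 window held 0 of the 4 motifs searched, which were these and a TATA box (TATAAA) and an AP-1 site (TGANTCA), and the matches shown do not overlap each other. Nid1 held a CCAAT box and a GC box, Timp3 a GC box, and Col1a2 a CCAAT box and a pair of GC boxes. Promoter entries were matched by symbol for 30 members, with 33 windows. A GC box was in 19 of those 33 windows (57.6%), beside 32.7% of all 32851 windows in the table. A CCAAT box was in 33.3% of the members' windows and 33.8% of all, a TATA box in 9.09% and 12.4%, and an AP-1 site in 3.03% and 6.75%. The windows of Col4a1 and Col4a2 overlap, because those genes start head to head. A match describes letters only.

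Fibrillar collagens form the tensile fibres of scar and portal tract. All 5 members were measured in both species, with a median log2 genotype ratio of 0.73 in mice and 1.60 in rats. Col3a1, the chain of type III collagen, had signals of 2392.2 on the leptin array, 2323.4 on the saline Lepob/Lepob array and 1399.9 on the WT array in mice, and the saline mutant was 1.66-fold above WT. In rats Col3a1 had 5001.6 on the leptin array, 4913.8 on the saline Lepmkyo/Lepmkyo array and 1265.5 on the WT array, a 3.88-fold difference between saline mutant and WT. Both mutant arrays thus lay above WT in each species. The other mouse probe set of Col3a1 was near the floor, with 101.5, 103.1 and 108.9 on the leptin, saline mutant and WT arrays. Its log2 ratio of -0.08 turns the direction when probe sets that may bind several transcripts are left out.

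Col1a2, the alpha-2 chain of type I collagen, had 1626.6 on the leptin array, 1650.5 on the saline mutant array and 907.5 on the WT array in mice, 1.82-fold higher in the saline mutant. In rats it had 639.6 and 742.6 on the leptin and saline mutant arrays and 230.0 on the WT array, 3.23-fold higher in the saline mutant. Its measured probe sets pointed the same way, from 0.86 to 1.15 in mice and from 1.37 to 1.69 in rats on the log2 scale. Its partner chain Col1a1 was dimmer. Col1a1 had 121.7 on the leptin array, 103.2 on the saline mutant array and 61.1 on the WT array in mice, at least 1.25-fold higher. In rats Col1a1 had 157.9, 146.9 and 136.4 on the leptin, saline mutant and WT arrays, a log2 genotype ratio of 0.11 on its brightest probe set. The other rat probe set had 149.4 on the saline mutant array and 90.8 on the WT array, under the floor, a log2 ratio of at least 0.62. By the probe set that represents it, the alpha-1 chain was under 1.5-fold in rats. The mouse value is a bound, so it does not show whether 1.5-fold was reached or how Col1a1 ranks against Col1a2.

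Type V collagen is laid down inside type I fibrils and sets their width. Col5a2 had 243.2, 260.2 and 146.0 on the leptin, saline mutant and WT arrays of mice, 1.78-fold higher in the saline mutant. In rats Col5a2 had 517.0, 587.1 and 194.1 on the same arrays, 3.02-fold higher, and 0.80 on the log2 scale by its other probe set. Col5a1 had 301.4, 322.3 and 121.5 in rats, 2.65-fold higher in the saline mutant (0.95 on the log2 scale by its other probe set), and its log2 ratio in mice was 0.35. Both chains were above WT on each mutant array of both species.

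Among the other collagens, type VI forms beaded filaments around cells and Col14a1 encodes a collagen that decorates the surface of fibrils. Their median log2 genotype ratio was 0.76 in mice over 4 members and 0.48 in rats over 3. Col14a1 had 2076.9, 2265.9 and 1181.6 on the leptin, saline mutant and WT arrays of mice, 1.92-fold higher in the saline mutant, and 0.38 on the log2 scale by its other measured probe set. In rats Col14a1 had 780.9, 916.1 and 299.7, 3.06-fold higher, and 0.89 on the log2 scale by its other probe set. Col6a2 had 298.8 on the leptin array, 321.0 on the saline mutant array and 75.1 on the WT array in mice, at least 3.88-fold higher. The other mouse probe set of Col6a2 gave -0.38, and in rats Col6a2 was under the floor on all 3 arrays. Col6a3 had 407.1, 452.0 and 301.1 in mice, which put it just inside the 1.5-fold threshold, and Col6a1 lay just outside it at 1.49-fold. In rats the log2 ratios were 0.48 for Col6a3 and 0.23 for Col6a1.

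Of the 13 basement membrane members, 10 were measured in mice with a median log2 ratio of 0.15. There, 2 passed 1.5-fold upward and 1 downward, near the 12.3% and 12.6% of all genes. In rats 12 were measured with a median of 0.71, 7 of them 1.5-fold higher and 0 lower, beside 10.2% and 5.92% of all genes. Nid1 encodes nidogen-1, a linker between laminin and type IV collagen. It had 1273.4 on the leptin array, 1653.7 on the saline mutant array and 567.8 on the WT array in mice, 2.91-fold higher in the saline mutant. The other measured mouse probe set gave 0.35 on the log2 scale, and the median over the probe sets was 0.95, under 2-fold. In rats its brightest probe set had 765.9, 914.9 and 300.3 on those arrays, 3.05-fold higher. The other rat probe set of Nid1 went the opposite way at -0.85 on the log2 scale, and the median was 0.38, so the Nid1 value depends on the probe set in both species.

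Nid2, the second nidogen, differed in direction between the species. In mice it had 103.2 on the leptin array, 78.9 on the saline mutant array and 138.1 on the WT array, at least 1.67-fold lower in the saline mutant. In rats it had 218.9, 216.7 and 132.9, 1.63-fold higher. Each value came from a single probe set. Hspg2 encodes perlecan, the large heparan sulfate proteoglycan of basement membranes. It had 584.2, 804.1 and 482.3 on the leptin, saline mutant and WT arrays of mice, 1.67-fold higher in the saline mutant by one probe set and 0.00 on the log2 scale by the other. In rats Hspg2 had 156.8, 186.1 and 108.0, 1.72-fold higher.

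Type IV collagen is the sheet-forming collagen of basement membranes. Col4a1 in rats had 558.3 on the leptin array, 637.2 on the saline mutant array and 320.0 on the WT array, 1.99-fold higher, and its other probe set gave 1.60 on the log2 scale. In mice its log2 ratio was 0.24. Col4a2, which shares its promoter region with Col4a1, had log2 ratios of 0.56 in rats and -0.13 in mice. Col18a1, the source of endostatin, which hepatocytes also make, had signals of 6728.0, 6658.4 and 7180.3 in mice and of 3697.6, 3570.1 and 3966.7 in rats on the leptin, saline mutant and WT arrays. Its log2 ratios were -0.11 and -0.15, so Col4a2 and Col18a1 were under 1.5-fold apart in both species.

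Laminins are cross-shaped trimers of an alpha, a beta and a gamma chain. Lama4, the alpha chain of vessel laminins, had 179.4, 238.5 and 87.8 on the leptin, saline mutant and WT arrays of rats, at least 2.46-fold higher in the saline mutant. Lamb1 had 226.7, 202.9 and 92.0 in rats, at least 2.09-fold higher. Lamc1, the common gamma chain, had 502.0, 603.0 and 369.5 in rats, 1.63-fold higher, with -0.50 on the log2 scale by its other probe set. In mice the log2 ratios of these chains were 0.06 for Lama4, 0.34 for Lamb1 and 0.54 for Lamc1, below 1.5-fold. Lamb2 in rats had a log2 ratio of 0.50, and Lama2 in rats and Lama5 in mice had -0.04 and -0.06.

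Fibronectin and the elastic fibre proteins did not share a direction. Fn1, which hepatocytes also secrete into plasma, had signals of 18759.8, 16423.6 and 19372.7 on the leptin, saline mutant and WT arrays of mice and 22869.5, 19408.4 and 21029.8 in rats. Its log2 genotype ratios were -0.24 and -0.12. Fbn1, the fibrillin of microfibrils, had 284.1 on the leptin array, 428.4 on the saline mutant array and 134.6 on the WT array in rats. It was 3.18-fold higher in the saline rat mutant, and 0.89 on the log2 scale by its other probe set. Eln, which encodes elastin, had 125.3, 89.4 and 111.9 in mice, a log2 ratio of -0.32, and was under the floor in rats.

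Among the proteoglycans, Esm1 and Dcn were higher in both mutants. Esm1 encodes endocan, a small proteoglycan secreted by endothelial cells. It had 462.6 on the leptin array, 432.8 on the saline mutant array and 66.2 on the WT array in mice, at least 5.23-fold higher in the saline mutant. In rats Esm1 had 530.4, 505.4 and 89.3 on those arrays, at least 5.21-fold higher. Esm1 was thus under the floor in WT and above it in all 4 mutant livers. Dcn encodes decorin, a small leucine-rich proteoglycan that binds collagen fibrils. It had 12809.6, 12808.7 and 7316.1 on the leptin, saline mutant and WT arrays of mice, 1.75-fold higher in the saline mutant. Its other mouse probe set gave -0.35 on the log2 scale but was near the floor, with 122.5, 94.5 and 120.2 on those arrays. In rats Dcn had 1205.8, 1098.7 and 331.0, 3.32-fold higher.

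Lum and Bgn encode lumican and biglycan, relatives of decorin, and neither reached a 1.5-fold genotype difference where it was measured. Lum had 623.6 on the saline mutant array and 833.9 on the WT array in mice, a log2 ratio of -0.42, and in rats both of these arrays were under the floor. Bgn had log2 ratios of 0.39 in mice, with its 3 probe sets at 0.20 to 0.51, and 0.00 in rats. Vcan, the large proteoglycan versican, was under the floor on all 6 arrays.

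Matricellular proteins bind matrix and cells without forming fibres. Postn encodes periostin, a collagen-binding protein of injured tissue. It had 1235.5 on the leptin array, 1738.0 on the saline mutant array and 431.3 on the WT array in mice, 4.03-fold higher in the saline mutant. The rat probe set of Postn had signals of 4.6, 2.3 and 10.3 on those arrays, all under the floor, and gave no ratio. Tgfbi, a TGF-beta-induced adhesion protein, had 2046.6, 2147.8 and 1384.5 in mice, 1.55-fold higher, and its 4 probe sets gave 0.31 to 0.63 on the log2 scale. In rats Tgfbi had 6616.1, 7255.3 and 7687.1, a log2 ratio of -0.08. Sparc, a collagen-binding glycoprotein, had 1355.5, 1443.2 and 761.8 in rats, 1.89-fold higher by its brightest probe set and 2.16 on the log2 scale by the other, and in mice its log2 ratio was 0.39. Thbs2, a thrombospondin, had log2 ratios of -0.37 in mice and -0.35 in rats, with only the WT array above the floor in rats. Thbs1 in mice was under the floor on the saline mutant and WT arrays.

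The TIMP proteins inhibit matrix metalloproteases. Timp1, an inhibitor that activated stellate cells make, had 145.4 on the leptin array, 143.9 on the saline mutant array and 23.8 on the WT array in mice, at least 1.74-fold higher. In rats Timp1 had 638.7, 565.4 and 84.6 on those arrays, at least 5.83-fold higher, the largest ratio or bound among the rat members. Both WT arrays were under the floor for Timp1 and all 4 mutant arrays were above it. Timp3, which binds to the matrix itself, had 699.2, 878.0 and 435.7 in mice, 2.02-fold higher, with its 4 probe sets at -0.02 to 1.32 on the log2 scale. In rats Timp3 had 1609.8, 1641.1 and 758.0, 2.17-fold higher, with its 3 measured probe sets at 0.27 to 1.11 on the log2 scale. Timp2 had 590.3, 575.2 and 313.8 in rats, 1.83-fold higher, and 0.44 on the log2 scale in mice.

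The 2 metalloproteases of the list did not share the direction of the inhibitors in both species. Mmp14 is the membrane-bound protease that activates pro-Mmp2. It had 1054.5 on the leptin array, 901.8 on the saline mutant array and 1596.3 on the WT array in rats, 1.77-fold lower in the saline mutant, and both of its probe sets gave that direction (-0.82 and -0.79). In mice Mmp14 had a log2 ratio of 0.53, but its 3 probe sets ran from -0.61 to 0.60 and so disagreed in direction. Mmp2, a gelatinase, had 165.0, 203.8 and 134.9 in rats, 1.51-fold higher, and -0.16 on the log2 scale in mice.

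Lox, Loxl1 and Loxl2 encode enzymes that crosslink collagen and elastin. They were dim. In rats Lox had 107.0, 126.3 and 28.7 on the leptin, saline mutant and WT arrays and Loxl1 had 89.7, 104.8 and 5.6, with bounds of at least 1.30-fold and 1.08-fold higher. Loxl2 in rats had a log2 ratio of 0.47, and Loxl1 in mice 0.14. Tgfb1, the growth factor that drives matrix production, had 105.1 on the saline mutant array and 121.0 on the WT array in mice, a log2 ratio of -0.20, and was under the floor in rats.

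Acta2 and Tagln encode smooth muscle actin and transgelin, which are contractile proteins of smooth muscle and of activated stellate cells. Acta2 had 383.3, 440.7 and 445.4 on the leptin, saline mutant and WT arrays of mice, a log2 genotype ratio of -0.02. In rats Acta2 had 126.0, 62.0 and 104.4, so the saline mutant was under the floor and WT just above it. Tagln had 155.9, 186.2 and 201.3 in mice, a log2 ratio of -0.11. In rats Tagln had 454.6, 396.4 and 86.2, at least 4.09-fold higher in the saline mutant. In mice, then, neither contractile member was higher in the mutant, and in rats Tagln was and Acta2 was not.

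**Figure D3:**
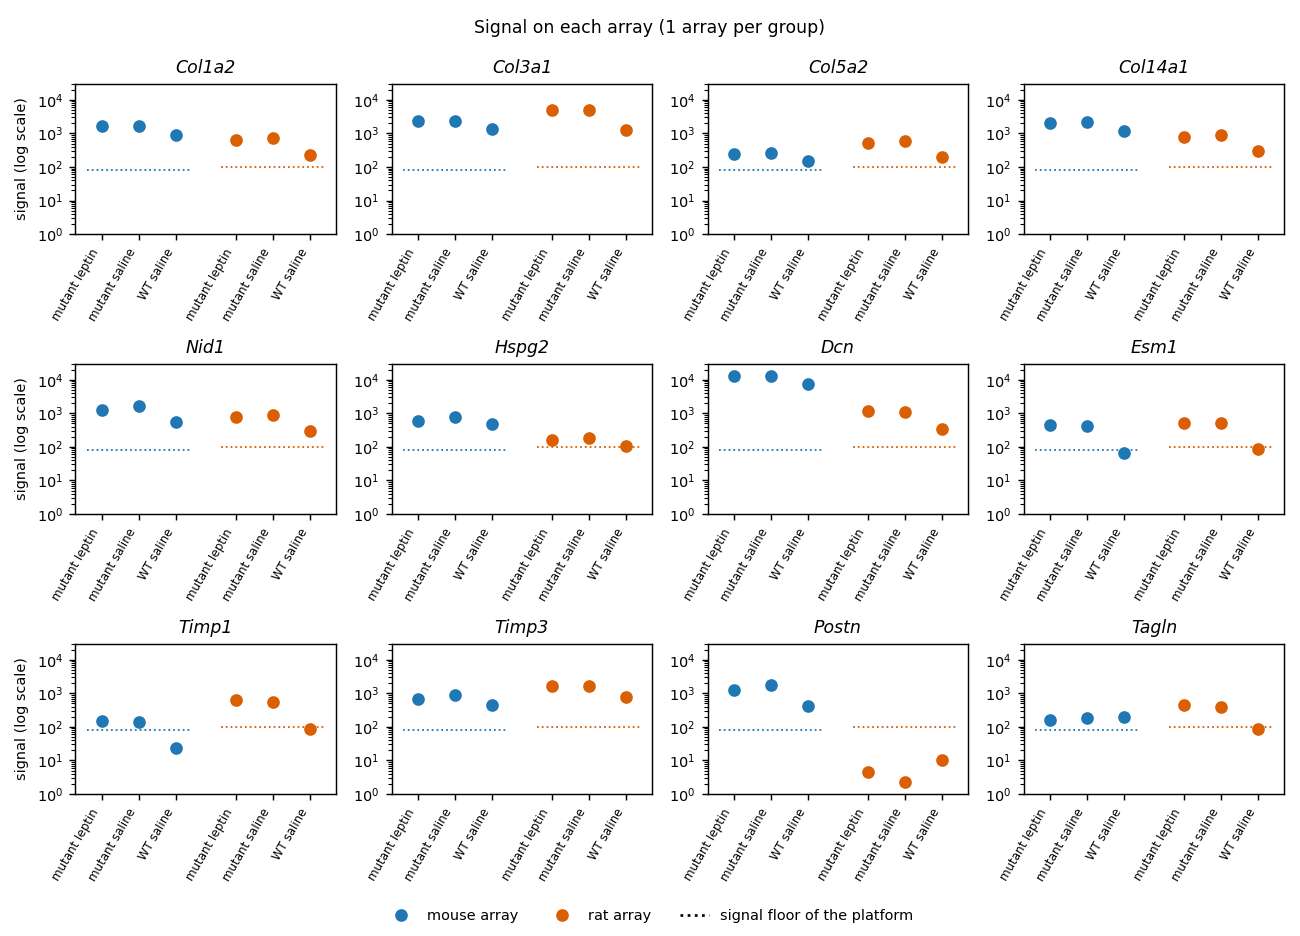
MAS5 signal (vertical axis, log scale) of 12 members, the 10 at least 1.5-fold higher in the saline mutants of both species and Postn and Tagln, on the mutant leptin, mutant saline and WT saline arrays of mice (left in each panel) and rats (right). Each point is 1 array and the dotted line is the signal floor, 82.7 in mice and 97.0 in rats. In the 10 shared members the saline mutant point lies above the WT point by the choice of these members. Their leptin points also lie above the same WT point in each species. Postn in rats lies under the floor and Tagln in mice has its highest point in WT.

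Genes that process, bind or respond to the matrix were described as lists of their own. Their 2-fold counts stand beside 4.46% of all genes higher and 3.71% lower in mice, and 2.99% and 1.45% in rats. Of the collagen processing genes (prolyl hydroxylases, chaperones and procollagen proteases), 0 of 13 measured in mice were 2-fold higher and 1 was lower, the proline isomerase Ppib, with 7446.1 on the saline mutant array against 15224.6 on the WT array, 2.04-fold. In rats 0 of 11 were 2-fold apart, and the medians were -0.17 in mice and 0.01 in rats on the log2 scale.

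Of other matrix proteins, 4 of 26 in mice were 2-fold higher, namely Lamb3 (at least 3.18-fold), Fbln5 (2.46-fold), Col4a5 (at least 2.36-fold) and Mgp (2.34-fold), and the laminin chain Lama3 was at least 3.91-fold lower. In rats 4 of 23 were higher and 0 lower: Ogn (2.35-fold), Sparcl1 (2.35-fold), Igfbp7 (2.26-fold) and Emilin1 (2-fold). The medians were 0.09 in mice and 0.38 in rats. Among the integrins and collagen receptors 0 of 18 were 2-fold apart in mice (median -0.07), and in rats 1 of 17 was higher, the alpha-v integrin Itgav at 2.13-fold (median 0.29).

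The TGF-beta pathway held genes on both sides. In mice 4 of 20 were 2-fold higher, the inhibitory Smad6 (2.26-fold), the matricellular target Ccn2 (2.20-fold), Id1 (2.04-fold) and the receptor Tgfbr2 (2.02-fold). Inhba, an activin subunit, was 4.03-fold lower and Fst, its antagonist follistatin, 2.15-fold lower, and the median was -0.09. In rats 2 of 19 were higher and 0 lower, with a median of 0.34. Ccn2 had 2218.8 on the saline mutant array against 469.1 on the WT array in rats, 4.73-fold, and 994.8 against 451.8 in mice. Skil, a repressor of the pathway, was 2.11-fold higher in rats.

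Of the other matrix proteases and inhibitors, 3 of 14 in mice and 3 of 10 in rats were 2-fold higher and 0 lower, with medians of 0.00 and 0.36. Mmp12, the elastase of macrophages, was at least 7.55-fold higher in mice, with 624.1 on the saline mutant array against 18.3 on the WT array, and at least 4.07-fold higher in rats. Mmp13 (at least 2.38-fold) and Ctsk (2.08-fold) were the others in mice, and Plat (4.07-fold) and Reck (2.33-fold) in rats. Of contractile and smooth muscle genes, 2 of 14 were higher in mice, Tpm2 (2.63-fold) and Vim (2.13-fold), and 3 of 14 in rats, Vim (2.65-fold), Tpm2 (2.17-fold) and Myl9 (2.14-fold), with 0 lower and medians of -0.01 and 0.60.

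Stellate cell markers were described beside the list because of its name, and 3 of the 19 markers (Dcn, Col1a1 and Col3a1) are also among the 46 genes. In mice 17 were measured, 2 at least 2-fold higher (Vim at 2.13-fold and Colec11 at 2.12-fold) and 0 lower, beside 4.46% and 3.71% of all genes. At 1.5-fold, 8 were higher and 2 lower, beside 12.3% and 12.6% of all genes. Those lower were Ngfr (at least 1.95-fold) and Gfap (at least 1.56-fold), named after their values were seen. The median in mice was 0.51, with 6 markers below 0. In rats 16 were measured, 4 at least 2-fold higher (Col3a1, Dcn, Vim and Reln, the last at 2.16-fold) and 0 lower, beside 2.99% and 1.45% of all genes. The median in rats was 0.55. Vim is also in the contractile list above. Their summed signal was 35954 on the saline mutant array against 22096 on the WT array in mice, and 16605 against 8010 in rats. Without the 3 shared genes, a setting added after the values were seen, the sums were 20718 against 13319 in mice and 10446 against 6277 in rats, the medians 0.48 and 0.53, and 2 genes in each species were 2-fold higher. Lrat, the enzyme of vitamin A storage that marks stellate cells, had 1100.6 against 771.7 in mice and 585.4 against 326.1 in rats, 1.43-fold and 1.80-fold. Des, the stellate intermediate filament desmin, had 84.4 against 106.7 in mice and 109.5 against 106.9 in rats. Marker ratios in whole liver RNA do not show which cells express the 46 genes. The label of the list holds only in part as background, since endothelial cells, hepatocytes, smooth muscle and portal fibroblasts make many of its proteins too.

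Markers of other liver cells also differed between the genotypes, and their part in the members' ratios was not tested. Their 1.5-fold counts stand beside 12.3% of all genes higher and 12.6% lower in mice, and 10.2% and 5.92% in rats. The 16 endothelial markers measured in mice gave a median log2 ratio of 0.30 and the 13 in rats 0.39, with summed signals of 18803 in the saline mutant against 14460 in WT and of 13688 against 10260. At 1.5-fold, 5 were higher in mice (Lyve1, Vwf, Emcn, Fcgr2b and Plvap) and 3 lower (Pecam1, Eng and Oit3), and in rats 5 were higher (Vwf, Fcgr2b, Tek, Emcn and Stab2) and 0 lower. The 14 macrophage and Kupffer cell markers measured in mice gave a median of 0.46 and the 11 in rats 0.15, with sums of 37714 against 26260 and of 20508 against 18066. Of these, 6 were 1.5-fold higher and 3 lower in mice (Cd163, Marco and Timd4), and 0 either way in rats. These markers are named after their values were seen. Portal fibroblast and mesothelial markers had a median of 0.84 over 4 genes in mice and 0.55 over 5 in rats, with sums of 857 against 703 and of 824 against 574, and 6 of 11 in mice and 4 of 9 in rats were under the floor on all arrays. Smooth muscle markers had a median of -0.16 over 5 genes in mice and 0.35 over 5 in rats, with sums of 1993 against 1113 and of 1372 against 951. The mouse sum rests on Tpm2, without which it was 483 against 540. Among the smaller sums that follow, those of neutrophil and lymphocyte markers in mice and of red blood cell markers in both species also turn direction without 1 gene (S100a8, Ptprc and Alas2).

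Hepatocyte markers, which define the labelled tissue, were bright on all arrays, with sums of 336969 in the saline mutant against 438884 in WT in mice and of 364631 against 404011 in rats, and medians of -0.36 and -0.17 over 10 genes in each. Cholangiocyte markers summed to 287 against 554 in mice, where 3 were measured, and to 844 against 457 in rats, where 2 were. Neutrophil markers summed to 847 against 634 in mice and to 348 against 208 in rats, lymphocyte markers to 1056 against 860 and to 697 against 450, and red blood cell markers to 1274 against 2791 and to 448 against 338. Adipocyte markers were under the floor on every array in mice (3 with a probe set), and 1 of 4 was measured in rats.

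**Figure D4:**
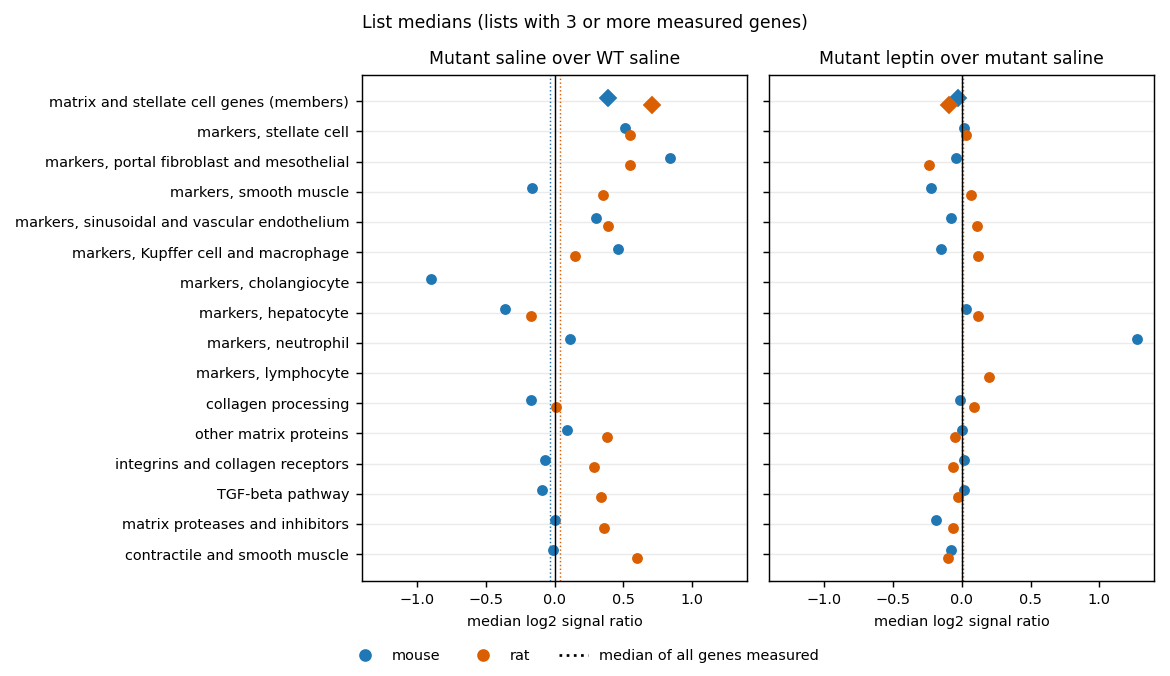
Median log2 signal ratio (horizontal axis, no unit) of the members and of the surrounding gene and marker lists with at least 3 measured genes, for saline mutant over saline WT (left) and mutant leptin over mutant saline (right), in mice and rats. In the left panel the members lie at 0.39 in mice and 0.71 in rats and the hepatocyte markers at -0.36 and -0.17, and dotted lines mark the medians of all genes.

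Leptin-treated mutants were set against saline-treated mutants to ask what changes within 6 h of the injection. No member was 2-fold apart in either species. In mice 41 members were measured with a median log2 ratio of -0.03, beside 0.00 over all 11536 genes, and a range from -0.52 to 0.76. None was 2-fold higher or lower, where 0.182% and 0.243% of all genes were, so few genes of any kind passed. At 1.5-fold, 2 members were higher, beside 2.18% of all genes, and 0 were lower, beside 2.21%. In rats 37 members were measured with a median of -0.09, beside 0.01 over all 9705 genes, and a range from -0.59 to 0.50. None was 2-fold higher or lower, where 0.237% and 0.278% of all genes were. At 1.5-fold, 0 rat members were higher, beside 2.10% of all genes, and 1 was lower, beside 2.59%. This comparison uses the same saline mutant array as the genotype comparison, so an error of that array enters both with opposite sign.

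Thbs2 and Lum were the mouse members past 1.5-fold. Thbs2 had 143.5 on the leptin array against 84.8 on the saline mutant array, 1.69-fold higher, with 109.8 on the WT array. Lum had 981.7 against 623.6, 1.57-fold higher, with 833.9 on the WT array. In both genes, by the probe set that represents the gene, the leptin array was the highest of the 3 and the saline mutant array the lowest. For Thbs2 that saline mutant signal was just above the floor. The other mouse probe sets of Thbs2 were under the floor on both mutant arrays and did not show this order. On the leptin, saline mutant and WT arrays they had 69.3, 79.5 and 43.1, and 69.7, 55.4 and 105.5. The mouse members with the lowest ratios were Col6a1, with 168.1 on the leptin array against 240.9 on the saline mutant array (1.43-fold lower), and Postn (1.41-fold lower). The other measured probe set of Mmp2 in mice gave -1.13 on the log2 scale where the brightest gave -0.33. A probe set of Fn1 gave -0.71 where the brightest gave 0.19, and a probe set of Timp2 gave 0.93 where the brightest gave -0.04.

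In rats Fbn1 was 1.51-fold lower after leptin, with 284.1 on the leptin array against 428.4 on the saline mutant array, and 134.6 on the WT array. Its other probe set gave -0.29 on the log2 scale. Col4a2 lay just outside the threshold, with 119.3 against 178.3, 1.49-fold lower. Bgn had the largest ratio in the other direction, with 1459.3 against 1030.0, 1.42-fold higher.

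Among members with large genotype ratios, some had leptin ratios near 0 and others were lower after leptin. The leptin log2 ratio of Esm1 was 0.10 in mice and 0.07 in rats, that of Timp1 0.01 and 0.18, that of Dcn 0.00 and 0.13, and that of Col3a1 0.04 and 0.03. Nid1 was lower, at -0.38 and -0.26, as were Postn in mice (-0.49) and Fbn1 (-0.59) and Lama4 (-0.41) in rats. The 5th percentile of all genes was -0.43 in mice and -0.46 in rats. Of all measured members, 18 lay above 0 and 23 below it in mice, and 16 above and 21 below in rats. Over all genes, 49.4% in mice and 52.0% in rats lay above 0. By role, the median leptin ratio was 0.04 in mice and -0.10 in rats for fibrillar collagens, -0.14 and -0.23 for other collagens, and -0.01 and -0.25 for basement membrane members. In the lists of matrix-related genes and stellate cell markers 1 gene was 2-fold apart after leptin, Id1 in mice, with 643.3 on the leptin array against 1295.8 on the saline mutant array. Of all genes measured, 0.182% were 2-fold higher and 0.243% lower in mice, and 0.237% and 0.278% in rats. The SD between probe sets of a gene was 0.26 in mice and 0.25 in rats on the log2 scale in this comparison.

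Of the stellate cell markers, 16 were measured in mice and 15 in rats, and 0 were 1.5-fold apart after leptin. Of all genes, 2.18% were 1.5-fold higher and 2.21% lower in mice, and 2.10% and 2.59% in rats, so a count of 0 says little. Their summed signals were 35344 on the leptin array against 35954 on the saline mutant array in mice, and 16545 against 16605 in rats. Endothelial markers summed to 17974 against 18803 in mice and to 14736 against 13688 in rats. Neutrophil markers in mice summed to 1862 against 847. Of 4 measured, 3 were at least 2-fold higher (S100a8 at 2.85-fold, S100a9 at 2.61-fold and Ngp at 2.23-fold), beside 0.182% of all genes. The remaining measured marker was lower, at -0.56 on the log2 scale. These genes are named after their values were seen, and the part of neutrophil markers in the members' ratios was not tested.

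**Figure D5:**
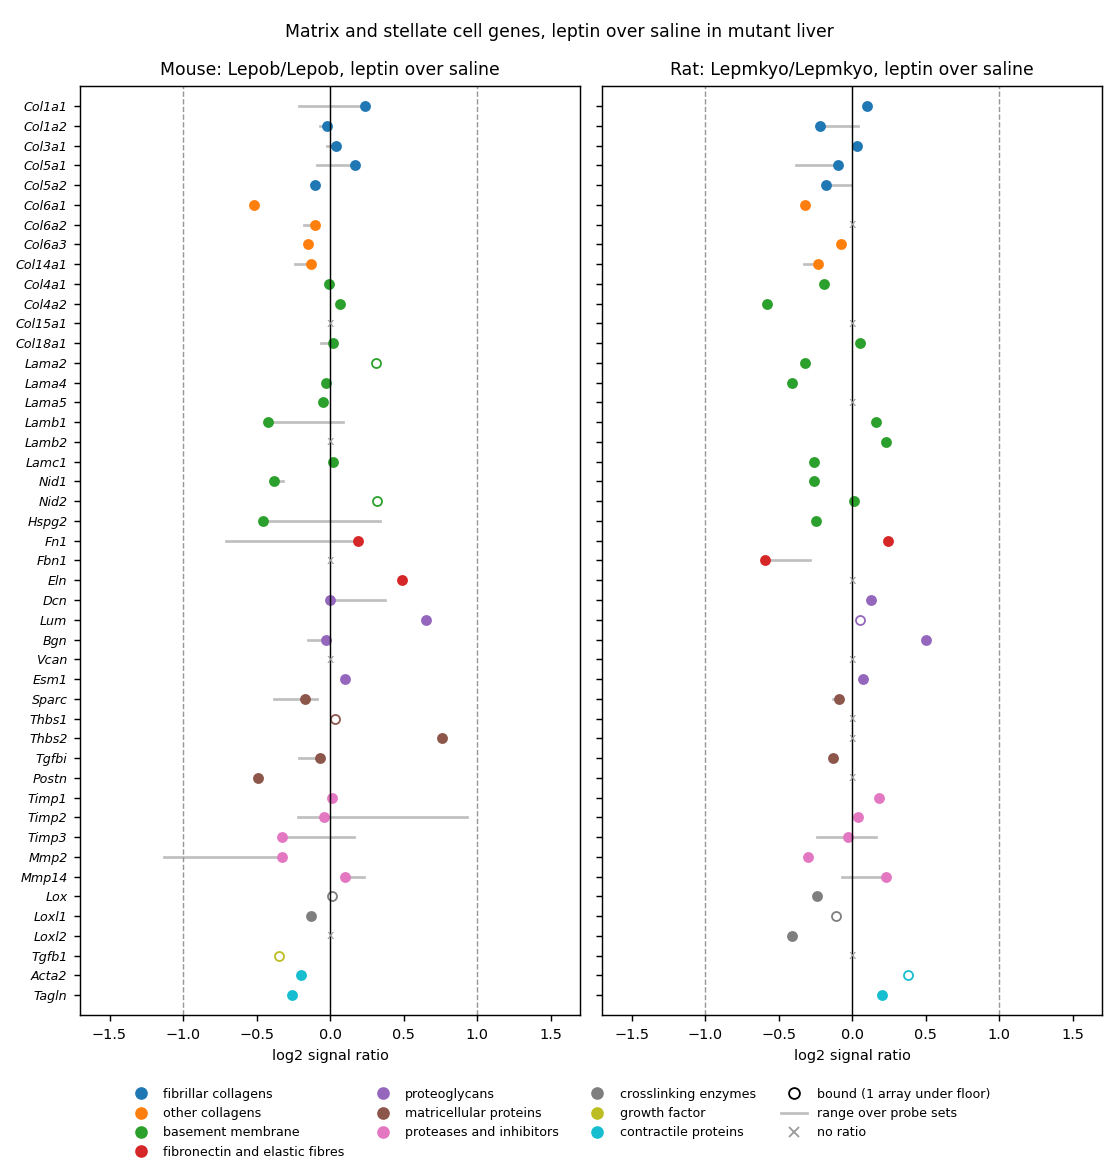
Log2 ratio of mutant leptin over mutant saline (horizontal axis, no unit) for each measured member, ordered by role, with mice and rats in separate panels. Each point is 1 gene from 1 pair of arrays, open points are bounds, crosses are genes with no ratio, grey lines are the range over probe sets of a gene and dashed lines mark 2-fold. All points lie between -0.59 and 0.76, inside the 2-fold lines.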

How the data were processed

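Liver RNA was prepared with Trizol and labelled for Affymetrix arrays, 1 per group, as the labels state. The authors turned the probes of a probe set into 1 signal intensity with MAS5 (no version given, per the submitters' processing notes), and the deposited intensities are linear. MAS5 brings arrays to a common trimmed mean. With 2% trimmed at each end that mean was 496 to 497 here, while the medians ran from 77.0 to 91.9 in mice and from 93.6 to 99.3 in rats. Dim MAS5 signals are imprecise, and the floor stands in for detection calls, which were not used here.

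Symbols were those of the platform annotation. Among 45037 mouse probe sets, 34945 had 1 symbol, 932 several and 9160 none, and 34741 were updated through their gene identifier to GRCm38.p6. In rats the numbers were 20826 of 31042, 436 and 9780. Only probe sets with 1 symbol were used, which dropped 3 in mice and 5 in rats that name a member. The members and the gene lists were chosen with earlier results of these data known. The log2 ratios, the floor and the 2-fold and 1.5-fold calls were as described above. Members past 1.5-fold in a comparison are given with the signal of every array, the rest by ranges or ratios, and up to 4 genes past 2-fold are named from each surrounding list: collagen processing, other matrix proteins, integrins and collagen receptors, the TGF-beta pathway, matrix proteases and inhibitors, contractile genes and stellate cell markers. Alternatives were quantile normalization, centring arrays on their median, a lower and a higher floor (25th and 75th percentile), a gene's median probe set, and dropping probe sets that may bind several transcripts. Calculations used Python 3.11.15, numpy 2.4.6 and pandas 2.3.3, and figures matplotlib 3.10.9. They were tested on simulated data. The leptin dose, 1 microg/mg as written in the labels, is not interpreted.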

Additional observations from a re-analysis of the deposited data

Results flagged for a closer look

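Nid2 was singled out because its genotype ratios had opposite signs in the species. Its log2 ratio, saline mutant over saline WT, was -0.74 in mice, where the mutant array lay under the floor, and 0.71 in rats. Each comes from 1 array per group and a single probe set, and the difference between the species was not tested.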

How the results depend on the processing

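Under the 6 other settings the median log2 genotype ratio of the measured members stayed between 0.35 and 0.65 in mice and between 0.39 and 0.73 in rats. With the floor at the 75th percentile it was 0.39 in both species. After leptin it lay between -0.06 and -0.01 in mice and between -0.10 and 0.01 in rats, above 0 only with the floor at the 75th percentile. Members at least 2-fold higher in the saline mutants numbered 5 in mice, against 9 with arrays centred on their median and 3 with the floor at the 75th percentile (Nid1, Timp3 and Postn), and 14 in rats, against 5 with that floor (Col3a1, Col14a1, Nid1, Dcn and Timp3). With the floor at the 25th percentile, 1 rat member was 2-fold lower (Col15a1), and leptin gave 2 mouse members 2-fold higher (Lama2 and Lox), 1 lower (Tgfb1) and 1 rat member higher (Acta2), where the main setting gave 0 of each. Members at least 1.5-fold higher in both species numbered 10, against 6 with the 75th percentile floor and 6 with a gene's probe sets replaced by their median. Col3a1 in mice reversed to -0.08 without probe sets that may bind several transcripts. Members at least 2-fold higher in every setting where they were measured were 2 of 5 in mice (Timp3 and Postn) and 8 of 14 in rats. Of those 8, Col3a1, Col14a1 and Dcn passed with the floor at the 75th percentile. Col5a1, Fbn1, Lama4, Lamb1 and Tagln were too dim to be measured with that floor. The causes were not tested beyond what each setting changes by construction.

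Counts over all genes moved with the floor. With the 25th and the 75th percentile as floor, genes 2-fold higher in mutant mice numbered 984 and 267 (533 in the main setting) and genes 2-fold lower 1341 and 198 (443). In rats they were 694 and 112 (294) higher and 453 and 74 (142) lower. After leptin they were 408 and 5 (21) higher and 436 and 4 (28) lower in mice, and 211 and 8 (23) higher and 296 and 5 (27) lower in rats. Dim signals therefore limit what can be called. No paired analysis was possible because each group holds 1 array.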
